A study of Rattus norvegicus with 6 samples.

Results

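Versican (Vcan), decorin (Dcn), biglycan (Bgn), lumican (Lum), fibromodulin (Fmod) and osteoglycin (Ogn) are proteoglycans of the extracellular matrix, core proteins that can carry long sulfated sugar chains. They were followed here in normal and fibrotic rat liver. A probe was taken for one of these genes when its RefSeq accession belonged to that gene in the RefSeq table of the GRCr8 assembly, whatever its signal. This gave 8 probes for 6 genes, of 30367 probes on the array, of which the table named 18355 for 15443 genes. Vcan and Bgn each had 2 probes and the other genes 1 each.

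The study compared 3 normal rat livers with 3 livers made fibrotic by bile duct ligation, an operation that closes the bile duct, so that bile backs up and the portal tracts scar. Total RNA of liver tissue blocks was labelled with Cy3, and each rat had 1 Agilent array. The strain, sex and age of the rats, the time from ligation to sampling and any sham operation are not given in the sources used here. Array numbers follow the order of the sample records, separately for normal and fibrotic livers, and pair nothing.

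Proteoglycans of the small leucine-rich family (Dcn, Bgn, Lum, Fmod and Ogn here) have a core of leucine-rich repeats that binds collagen and sets how thick collagen fibrils grow. Dcn and Bgn usually carry chondroitin or dermatan sulfate and can bind TGF-beta, while Lum, Fmod and Ogn can carry keratan sulfate. Vcan is a much larger chondroitin sulfate proteoglycan that binds hyaluronan and fills provisional, loose matrix. In liver these genes are expressed mainly by stellate cells, portal fibroblasts and other mesenchymal cells rather than by hepatocytes.

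All 6 arrays lay on 1 slide. The 75th percentile of the processed signal ran from 3755 to 4386 on the normal arrays and from 4840 to 6401 on the fibrosis arrays, and 67.2% to 78.0% of spots were well above background. Hepatocyte markers were bright on every array, with a summed level of 6 markers (each signal divided by the array's 75th percentile) of 139 to 141 in normal and 76.8 to 102 in fibrotic liver. Across 12620 tested probes, 1915 were higher in fibrosis and 610 lower. The balance moved with the scaling: quantile normalization gave 1420 and 1150, centring on the array median 1440 and 1678, scaling to the E1A control probes 2369 and 165, and normexp background correction 1498 and 811. The median log2 difference of all tested probes was -0.01, against -0.20, -0.38, 0.35 and -0.10 in those settings.

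Vcan and Ogn were higher in fibrotic liver, and the others did not pass the test. Values below are log2 processed signals minus the array's 75th percentile, so that 0 is that percentile, and a difference is fibrosis minus normal. The test was limma's moderated test across all tested probes, with a Benjamini-Hochberg adjusted p under 0.05 as the threshold. Of the 6 genes 5 were tested, 2 were higher and 0 were lower, where 17.3% of all tested named genes were higher and 4.87% lower. Of the 7 tested probes, the 2 of Vcan and the 1 of Ogn were higher and 0 were lower, beside 15.2% and 4.83% of all tested probes. The Vcan probes passed the filter on dim signals through the fibrosis arrays alone. In these bulk samples, more cells of a type and more RNA per cell cannot be told apart, nor can fewer cells and less RNA per cell.

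The promoters of Vcan and Ogn are shown because these are the members called higher. These are the 250 bases before the start of each gene, 5′ to 3′ on the gene's strand, from the RefSeq table of GRCr8, with matches to searched motifs in capitals. Vcan lies on the minus strand at chr2:22595956-22596205 and Ogn on the minus strand at chr17:15258996-15259245. For Vcan the table holds 2 start sites, and the window of the upstream one is printed.
Vcan: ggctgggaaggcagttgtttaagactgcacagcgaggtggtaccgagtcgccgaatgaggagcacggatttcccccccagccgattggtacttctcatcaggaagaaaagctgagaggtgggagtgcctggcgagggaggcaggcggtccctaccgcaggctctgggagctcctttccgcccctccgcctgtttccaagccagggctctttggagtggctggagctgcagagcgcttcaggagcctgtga
Ogn: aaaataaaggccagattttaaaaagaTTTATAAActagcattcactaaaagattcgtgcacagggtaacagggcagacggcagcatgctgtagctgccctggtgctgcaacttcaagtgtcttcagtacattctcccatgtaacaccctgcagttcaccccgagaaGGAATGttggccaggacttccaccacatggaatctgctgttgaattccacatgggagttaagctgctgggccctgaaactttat

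The motifs searched on both strands were the TATA box (TATAAA), AP-1 (TGANTCA), TEAD (GGAATG) and SMAD (GTCTAGAC). The Ogn window held TATAAA at -222 and, overlapping it on the opposite strand, at -224 from the start, and GGAATG at -84. These are matches of letters only. The TATAAA matches lie near the far end of the window, and whether they act as a TATA box was not tested. Among 33469 promoter windows of this length, 12.93% held the TATA box, 12.06% the TEAD motif, 6.34% the AP-1 motif and 0.17% the SMAD motif. None of the letters searched occurred in either Vcan window or in those of Lum and Fmod. The Vcan window shown was 61.6% G and C and that of Ogn 46.0%, beside a median of 51.2% over all windows.

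Vcan, the versican core protein, was well above background on 0 normal arrays and on all 3 fibrosis arrays, with each of its probes. On the deposited linear scale, probe A_44_P158798 gave processed signals of 51.3, 53.6 and 41.6 in normal liver and 1310, 1194 and 918.6 in fibrotic liver. Its log2 values were -6.25, -6.35 and -6.49 in normal and -2.29, -2.02 and -2.48 in fibrotic liver. The groups lay far apart, and the 3 fibrotic livers differed little.

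The second Vcan probe, A_64_P065091, gave -6.26, -6.51 and -7.12 in normal and -2.17, -1.56 and -3.28 in fibrotic liver. The groups again did not overlap, and fibrosis array 3 was the lowest of the fibrotic livers with this probe. Since the normal signal is only a bound, the increase has a lower bound, which holds for the reported processing only. It was 14.1-fold with the first probe and 13.4-fold with the second. The limma test of the fitted differences of 4.10 and 4.29, which use the dim normal values, gave adjusted p = 5.12e-05 and 0.000437. Those p-values do not test the bounds. Both probes passed the filter through the fibrosis arrays alone. The bound sets the fibrotic mean against the higher of the probe's own signal and the lowest signal well above background on each normal array. With normexp the log2 differences were 2.81 and 2.73, smaller than these bounds, and both stayed called.

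Ogn, a small proteoglycan also known as mimecan, was measured above background on all 6 arrays. Its log2 values were -2.32, -1.90 and -2.09 in normal liver and -0.03, -1.30 and -0.54 in fibrotic liver. Every fibrotic liver was above every normal one, with fibrosis array 1 highest and fibrosis array 2 lowest of the 3. The means were -2.10 ± 0.21 (SD, n = 3) and -0.62 ± 0.64 (SD, n = 3). The difference was 1.48 ± 0.35 (SE, limma adjusted p = 0.0197), a 2.79-fold increase with a 95% interval from 0.68 to 2.28 on the log2 scale. Its direction held in all settings run, but the call was lost in 3 of the 6 fits that left out an array. The adjusted p was 0.0683 when normal array 1 was dropped (difference 1.37), 0.0661 for normal array 3 (1.49) and 0.0564 for fibrosis array 1 (1.19).

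**Figure D1:**
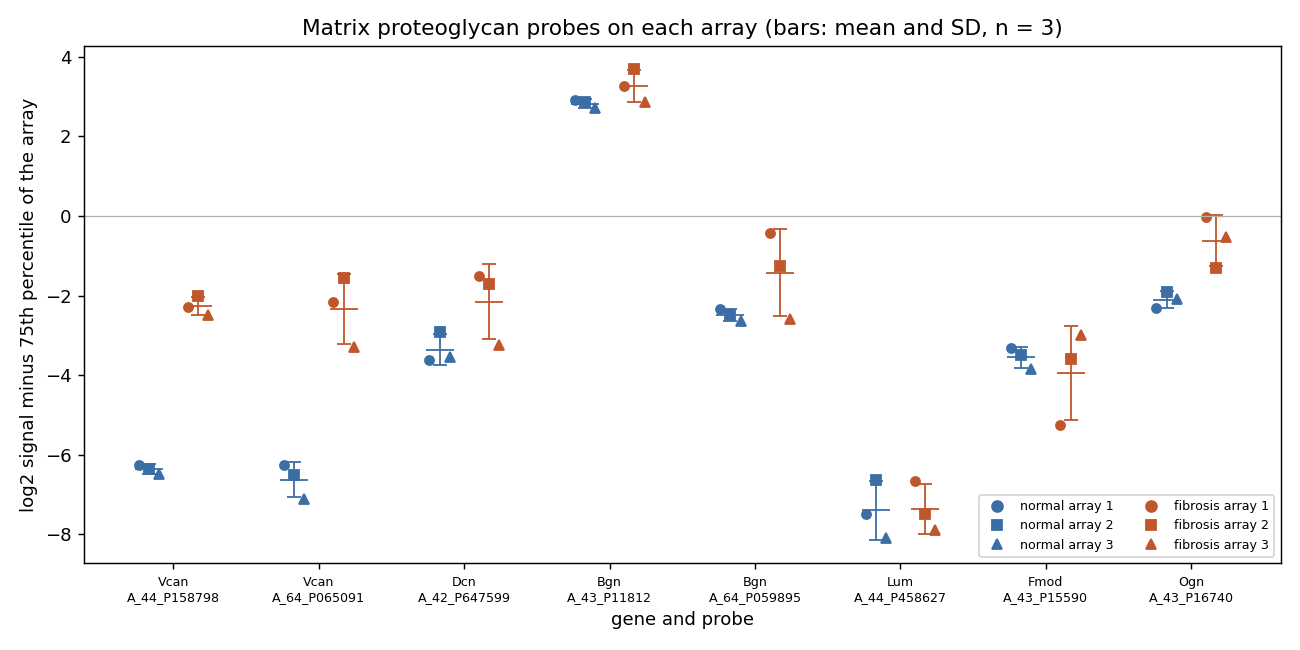
Log2 processed signal minus the array's 75th percentile (vertical axis) for the 8 probes (horizontal axis) on the 3 normal and 3 fibrosis arrays, with the mean and SD of each group. The groups stand apart for both Vcan probes and for Ogn; they overlap for Dcn, Bgn, Lum and Fmod.

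Dcn, the decorin core protein, was higher in 2 of the 3 fibrotic livers and near the normal level in the other. Its values were -3.61, -2.91 and -3.55 in normal and -1.51, -1.70 and -3.24 in fibrotic liver. Fibrosis array 3 lay below normal array 2, so the groups overlapped. The difference of 1.21 ± 0.47 (SE) did not pass the test (limma adjusted p = 0.114), with a 95% interval from 0.13 to 2.28. Without fibrosis array 3 it was 1.75 and passed (adjusted p = 0.00696).

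The Dcn probe was printed in 10 spots, which shows how the spread within an array compares with the spread between rats. Spot values had an SD of 0.12 to 0.29 within an array, whereas the array values had an SD of 0.39 among normal and 0.95 among fibrotic livers. On fibrosis array 3 the spots ran from -3.79 to -3.001, and on fibrosis arrays 1 and 2 from -1.76 to -1.32 and from -1.78 to -1.44. The low value of fibrosis array 3 was thus shared by all its Dcn spots. The scanner software marked 32 of the 60 Dcn spot readings as non-uniform or outlying. With marked spots kept, normal array 2 stood at -2.57 in place of -2.91 and the difference was 1.14 (adjusted p = 0.163).

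**Figure D2:**
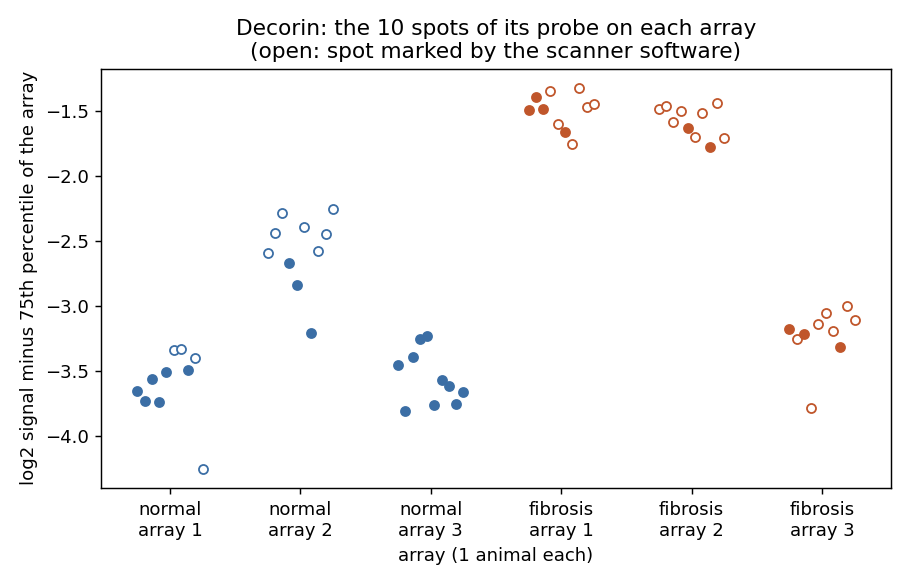
Log2 processed signal minus the array's 75th percentile (vertical axis) of each of the 10 Dcn spots on each array (horizontal axis), with open circles for marked spots. The spots of fibrosis array 3 lie from -3.79 to -3.001, apart from those of fibrosis arrays 1 and 2, and normal array 2 lies above the other normal arrays.

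Bgn, the biglycan core protein, did not pass with either of its 2 probes. Probe A_43_P11812 gave 2.91, 2.86 and 2.71 in normal and 3.26, 3.69 and 2.87 in fibrotic liver. Fibrosis array 3 fell inside the normal range. The difference was 0.45 ± 0.28 (SE, limma adjusted p = 0.313) with a 95% interval from -0.19 to 1.08.

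Bgn probe A_64_P059895 gave -2.35, -2.50 and -2.65 in normal and -0.43, -1.27 and -2.59 in fibrotic liver. Fibrosis arrays 1 and 2 were above all normal livers and fibrosis array 3 was not. The difference was 1.07 ± 0.49 (SE, adjusted p = 0.179), and without fibrosis array 3 it was 1.65 and passed (adjusted p = 0.0107). The differences of the 2 probes themselves differed by 0.62 (exact permutation test, two-sided p = 0.4, where 0.1 is the smallest p that 3 against 3 arrays allow).

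The result of the first Bgn probe, A_43_P11812, also depended on the scaling. Its difference was 0.86 with quantile normalization (adjusted p = 0.0465) and 0.93 with cyclic loess (adjusted p = 0.0358), which passed, and 0.09 with the array median (adjusted p = 0.819). The second probe did not pass in any of these 3 settings, at 0.84, 0.93 and 0.71.

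Fmod, fibromodulin, was above background on all arrays and did not differ beyond its spread. Its values were -3.32, -3.50 and -3.85 in normal and -5.26, -3.59 and -2.995 in fibrotic liver. The fibrotic livers held both the lowest and the highest value of the 6. The difference was -0.39 ± 0.53 (SE, limma adjusted p = 0.670), with a 95% interval from -1.61 to 0.83. It was 0.27 without fibrosis array 1 (adjusted p = 0.660), and -1.25 with array weights estimated by limma, when it passed (adjusted p = 0.0416).

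Lum, lumican, was barely detected. Its values were -7.49, -6.62 and -8.09 in normal and -6.67, -7.50 and -7.90 in fibrotic liver. Only fibrosis array 1 was well above background, so the probe was not tested and no fold is given. With no filter on dim probes the difference was 0.04 (adjusted p = 0.967). On chromosome 7 the RefSeq table places Dcn, Lum, Kera (keratocan) and Epyc (epiphycan) side by side. Dcn was tested (above), whereas Kera stood well above background on 0 arrays and Epyc on 1 normal array.

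The fibrotic livers did not rank the same way for every gene. Fibrosis array 3 was the lowest of the 3 for Vcan with both probes, for Dcn, for Bgn with both probes and for Lum, and it was the highest for Fmod. Fibrosis array 1 was the highest for Ogn and the lowest for Fmod. Over all 6 arrays, the centred profiles (log2 value minus the gene's own mean, marked spots kept) of Dcn and Bgn were the closest pair among the 5 tested genes, with a root mean square difference of 0.61. Those of Vcan and Fmod were the farthest apart, at 2.36.

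The members' values under other scalings show which differences rest on that choice. Vcan and Ogn stayed called under each of the 6 settings plotted, with the Ogn difference from 1.12 to 1.83. The Vcan differences plotted are set against a normal signal not well above background, so their sizes have no fixed meaning. Dcn ran from 0.85 to 1.56 and was called in none of them.

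**Figure D3:**
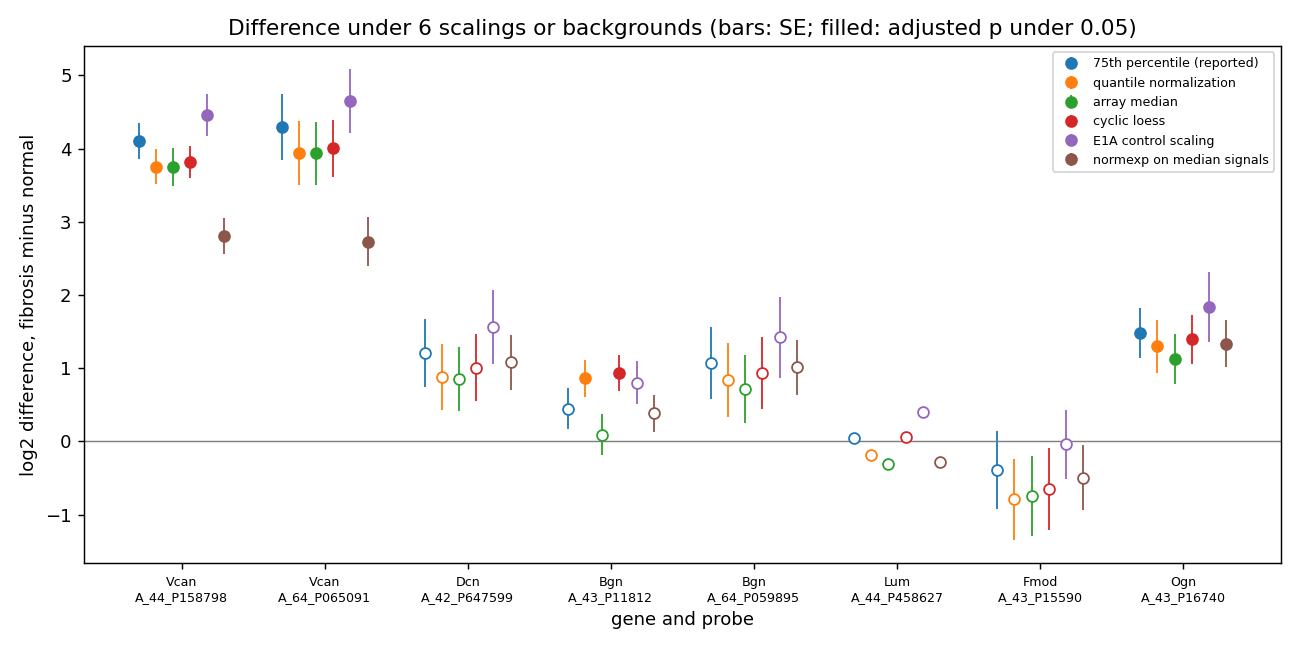
Log2 difference, fibrosis minus normal (vertical axis), of each probe (horizontal axis) under the reported 75th percentile scaling, 3 other scalings between arrays, E1A control scaling and normexp, with SE bars where a fit was made and filled circles where the adjusted p was under 0.05. Vcan and Ogn are filled throughout, and Bgn probe A_43_P11812 is filled with quantile normalization and cyclic loess.

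Summed levels of mesenchymal markers were higher in fibrosis, though many single markers did not pass. These sums and calls are from the fit with marked spots kept, in which 14.7% of all tested named genes were higher and 7.62% lower. The summed level of 6 stellate cell markers was 1.24 to 1.74 in normal and 3.46 to 4.87 in fibrotic liver, with 3 of 6 called higher. For 6 myofibroblast markers it was 1.41 to 1.67 and 3.72 to 8.45, with 3 of 6 higher. For 5 portal fibroblast markers on the array it was 0.26 to 0.43 and 1.55 to 2.91, with 2 of the 3 tested higher and Cd34 well above background on 0 of the 6 arrays. For 4 mesothelium markers it was 0.63 to 0.70 and 4.41 to 6.02, with 2 of 4 higher, of which Krt19 is also a bile duct marker. For 5 bile duct markers it was 0.46 to 0.62 and 6.34 to 6.72, with all 5 higher. Fibrosis array 3 had the lowest sum of the 3 fibrotic livers for the stellate, myofibroblast and portal fibroblast markers. For 6 macrophage markers it was 10.4 to 13.0 and 12.9 to 18.7, and for 4 endothelial markers 11.5 to 12.5 and 7.14 to 10.3, with 0 called in either list. Hepatocyte sums were lower in fibrosis, with 1 of 6 markers called lower. Markers that did not pass included Lrat (-0.11), Reln (0.50) and Ngfr (0.44) of stellate cells, Cnn1 (0.10) and Myh11 (-0.21) of myofibroblasts, Gli1 (-0.43) of portal fibroblasts, and Wt1 (-0.51) and Gpm6a (-0.20) of mesothelium. The part of these cells in the results above was not tested.

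Other small leucine-rich proteoglycans were measured in part. Of 12 family genes listed beside the members, 8 were on the array and 4 were tested, of which 2 were higher and 0 lower (median difference 0.54, beside 0.03 for all tested named genes). The fit that kept marked spots tested 5, with 2 higher and 1 lower, and the median turned to -0.05 (-0.07 for all). Of all tested named genes, 17.3% were higher and 4.87% lower, or 14.7% and 7.62% with marked spots kept. Aspn, asporin, which binds collagen and TGF-beta, gave -5.19, -4.74 and -4.54 in normal and -1.80, -2.36 and -3.39 in fibrotic liver. The groups did not overlap, and the difference was 2.31 ± 0.41 (SE, limma adjusted p = 0.00590). Aspn lies on chromosome 17 next to Omd, and Omd next to Ogn.

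Prelp, a small leucine-rich protein of connective tissue that anchors basement membranes to collagen, gave -0.39, -0.76 and -1.24 in normal and 0.09, 0.62 and 0.26 in fibrotic liver. It rose by 1.12 ± 0.30 (SE, adjusted p = 0.0325), and its call was lost with the array median (0.76, adjusted p = 0.0981), with no filter on dim probes and when any of 4 arrays was left out (lowest 0.90, without normal array 3). It is the neighbour of Fmod on chromosome 13, whose own difference had the opposite sign and did not pass. Omd (osteomodulin, -0.05, adjusted p = 0.935) and Nyx (nyctalopin, -0.07, adjusted p = 0.903) did not pass, and their signs turned with the scaling (Omd 0.14 with cyclic loess, Nyx 0.28 with E1A scaling). For Tsku (tsukushi), 10 of 12 spot readings were marked, which left values on fibrosis arrays only, and it was not tested. With marked spots kept it was bright in both groups, with means of 2.38 in normal and 1.09 in fibrotic liver. It then fell by 1.29 (adjusted p = 0.0370).

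For genes of hyaluronan handling, the polymer to which Vcan binds, the number called higher depended on the setting. Of 23 genes in this list, which also holds the hyalectans and link proteins, 20 were on the array and 8 were tested, with 3 higher and 0 lower (median 0.45). With marked spots kept, 13 were tested, with 4 higher and 0 lower, and the median turned to -0.07. With normexp 1 of the 8 was higher. With probes required to be well above background on all 6 arrays, 5 were tested and 1 was higher (median 0.13), beside 1166 of all 10450 probes then tested. The shares of all tested named genes were 17.3% higher and 4.87% lower, and 14.7% and 7.62% with marked spots kept. Tnfaip6, a hyaluronan-binding protein of inflammation, rose, with a lower bound of 1.57-fold under the reported processing. Hapln4, a link protein, rose, with a lower bound of 1.63-fold. Neither was well above background in normal liver, and both were tested through their fibrosis signal alone. The limma adjusted p of 0.000702 and 0.0337 are for their fitted differences of 2.34 and 1.94, which use the dim normal values, not for the bounds. With normexp both lost their calls, at 0.57 and 0.39 on the log2 scale, smaller than these bounds. The call of Hapln4 was also lost when arrays were quantile normalized (adjusted p = 0.0922) or centred on their median (adjusted p = 0.0561). The third was Cd44, a hyaluronan receptor, at 1.83 (adjusted p = 0.0147) or 3.42 with marked spots kept, when another of its probes stood for it; it is named here after its values were seen. Hapln1, the link protein gene beside Vcan on chromosome 2, stood at -0.40 (adjusted p = 0.370), and Has2, a hyaluronan synthase, at -0.07 (adjusted p = 0.918).

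Of 21 genes for proteoglycans of the cell surface, basement membrane and granules, 12 were tested, with 5 higher and 0 lower (median 1.08, or 0.25 with no filter on dim probes). Keeping marked spots, 16 were tested, with 6 higher and 1 lower (median 0.66), the latter Prg4 (lubricin, -1.47, adjusted p = 0.00895). Among all tested named genes 17.3% were higher and 4.87% lower, or 14.7% and 7.62% with marked spots kept. Gpc1, a glypican tied to the membrane, was not well above background in normal liver and was tested through its fibrosis signal alone. The limma adjusted p of 0.000144 is for its fitted difference of 4.87, which uses the dim normal values, not for a bound. Gpc1 rose, with a lower bound of 9.87-fold under the reported processing. With normexp its log2 difference was 2.41, smaller than this bound, and it stayed called. Gpc3, another glypican, rose by 3.00 ± 0.39 (SE, adjusted p = 0.00208, 2 unmarked fibrosis arrays). The syndecans Sdc1, Sdc3 and Sdc4 stood at -0.35, 0.25 and 0.06 and did not pass. With marked spots kept, a brighter Sdc3 probe stood at 0.85 (adjusted p = 0.116) and Sdc2 at -0.74 (adjusted p = 0.0617), and neither passed.

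Of 31 enzymes and transporters that build the sulfated chains, 14 were tested, with 4 higher and 1 lower (median 0.61), beside 17.3% higher and 4.87% lower of all tested named genes. Chst14, the sulfotransferase of dermatan sulfate, rose by 2.16 ± 0.39 (SE, limma adjusted p = 0.00620), or 1.39 with its dimmest probe (adjusted p = 0.0732). Chst1, a sulfotransferase of keratan sulfate, rose by 1.88 ± 0.34 (adjusted p = 0.00583). Fam20b, a kinase of the linkage region that joins chain to core protein, fell by 1.10 (SE 0.26, adjusted p = 0.0193), and that call was lost with E1A scaling (-0.75, adjusted p = 0.195) and without any 1 normal array. With marked spots kept this probe stayed called, but another probe with a higher mean then stood for Fam20b, at -0.37 (adjusted p = 0.505). With marked spots kept, 23 were tested, with 4 higher and 2 lower (median 0.34), beside 14.7% and 7.62% of all tested named genes. Ugdh, which makes the UDP-glucuronic acid that chains are built from, was then at -2.16 (adjusted p = 0.0175); it was named after its values were seen.

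Of 17 proteases and their helpers that cut Vcan or mature the small proteoglycans, 9 were tested, with 4 higher and 0 lower (median 0.75, or -0.04 with the dimmest probe of each gene). The fit that kept marked spots tested 12, with 6 higher and 0 lower (median 1.34). With normexp 3 of the 9 were higher. With probes required to be well above background on all 6 arrays, 7 were tested and 2 were higher (median 0.15), beside 1166 of all 10450 probes then tested. All tested named genes had 17.3% higher and 4.87% lower, or 14.7% and 7.62% with marked spots kept. Adamts15, a protease that cuts Vcan, rose by 3.11 ± 0.28 (SE, limma adjusted p = 0.000209), but its dimmest probe gave -1.56 (adjusted p = 0.103). Adamts5, of the same family, rose by 1.95 (adjusted p = 0.00313). Adamts4 was not well above background in normal liver and was tested through its fibrosis signal alone. It rose, with a lower bound of 1.41-fold under the reported processing. The limma adjusted p of 0.000783 is for its fitted difference of 1.96, which uses the dim normal values, not for the bound. Both genes were named after their values were seen. Pcolce, the enhancer of procollagen C-proteinase, rose by 3.01 ± 0.26 (adjusted p = 0.000173). Bmp1, which removes the propeptides of Bgn and Ogn, stood at -0.28 (adjusted p = 0.585).

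Of 20 receptors and ligands that these proteoglycans bind, 8 were tested, with 4 higher and 0 lower (median 1.35). Keeping marked spots, 16 were tested, with 8 higher and 2 lower (median 1.49), the latter Cd14 (-1.33, adjusted p = 0.0140) and Egfr (-1.33, adjusted p = 0.0325). For this list and the collagens below, the shares of all tested named genes were 17.3% higher and 4.87% lower. With marked spots kept they were 14.7% and 7.62%. Eln (elastin) rose by 3.38 ± 0.45 (SE, limma adjusted p = 0.00140, or 0.58 and no call with its dimmest probe). Tgfb2, a TGF-beta, stood at 2.95 on 2 unmarked fibrosis arrays (adjusted p = 0.00171), and its dimmest probe at -0.62. Of 10 collagens of the decorated fibrils, 6 were on the array and 4 tested, with 3 higher and 0 lower (median 1.44), or 6 tested and 5 higher with marked spots kept. Col1a1 rose by 2.09 (adjusted p = 0.0321) and Col6a2 by 1.52 (adjusted p = 0.0200). Leaving out 1 array ended the call of Col1a1 for 5 of the 6 arrays and that of Col6a2 for 4. The collagens called higher then numbered 0 to 2. With marked spots kept, another probe with a higher mean stood for Col1a1, at 3.19 (adjusted p = 0.0106).

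**Figure D4:**
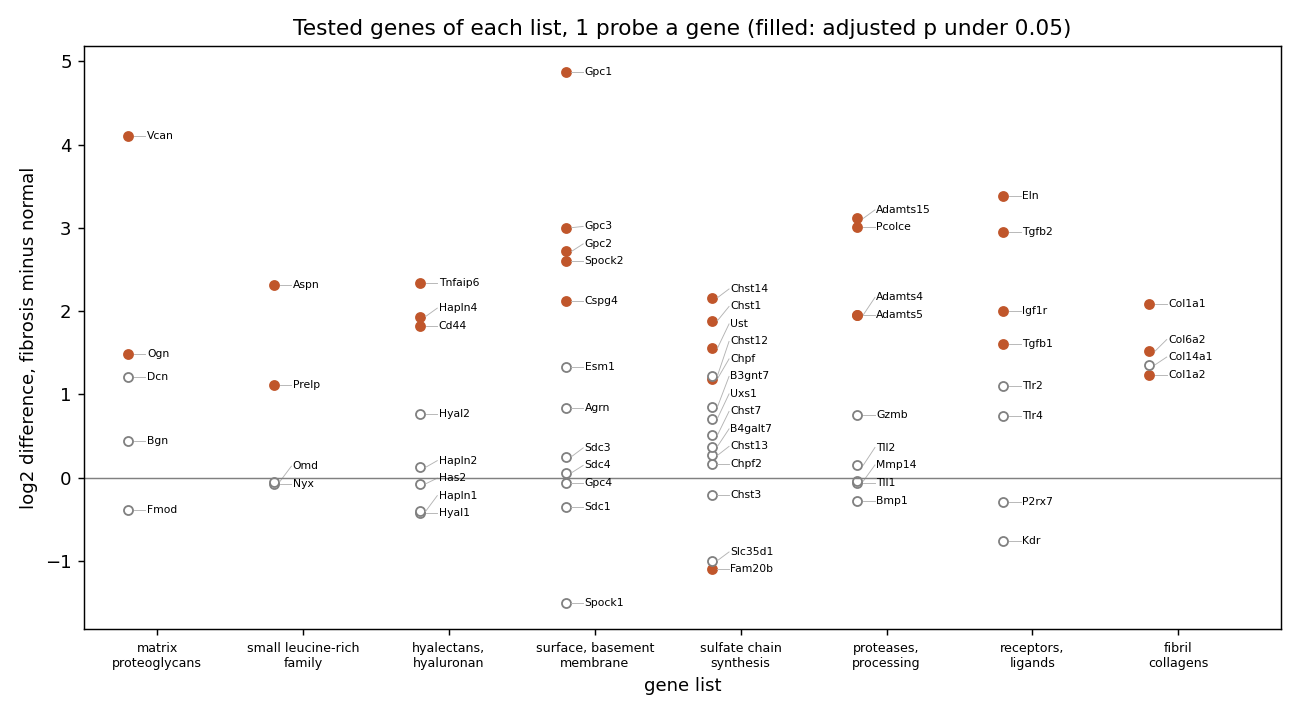
Log2 difference, fibrosis minus normal (vertical axis), of each tested gene in the gene lists (horizontal axis), 1 probe a gene, filled where the adjusted p was under 0.05. Vcan and Ogn are the filled points among the matrix proteoglycans, and points of genes not well above background in normal liver, such as Vcan and Gpc1, have no fixed height.

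Across the 5 lists of proteoglycans, hyaluronan, chain synthesis and proteases, without the 6 members, 87 genes were on the array and 47 were tested. Of these 18 were higher and 1 lower, with a median of 0.75, beside 17.3% higher and 4.87% lower among all tested named genes. With marked spots kept, 69 were tested, 22 were higher and 4 lower (median 0.48), beside 14.7% and 7.62%. The lists were chosen with earlier results of these data known, so these counts are a description and no test. Some of the genes, such as Gpc1 and Tnfaip6, passed the filter on dim signals through the fibrosis arrays alone.

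Likeness of profile was measured as the root mean square difference between centred log2 profiles over the 6 arrays, among 10864 genes with marked spots kept. The members' own profiles lay 0.61 to 2.36 apart in pairs, so nearness to their mean is not nearness to each member. The genes nearest to the mean profile of the 5 tested members were Ifitm2 (an interferon-induced membrane protein, 0.04), Acot9 (a mitochondrial acyl-CoA thioesterase, 0.06), Ppm1j (a phosphatase, 0.06), Sparcl1 (a matricellular protein of the SPARC family, 0.07) and Tspan5 (a tetraspanin, 0.10). The nearest to Vcan was Dbn1 (drebrin, which binds actin, 0.13), to Ogn Tasl (0.18), to Dcn Rai2 (0.14), to Bgn Fat1 (an atypical cadherin, 0.05) and to Fmod Tubgcp6 (a subunit of the gamma-tubulin complex, 0.25).

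The groups did not overlap for 3 of the 7 tested member probes, all with fibrosis higher. Both Vcan probes are among them and were tested through their fibrosis signal alone. Of the 9575 tested probes with a value on all 6 arrays, 38.3% did not overlap, and 23.8% did so with fibrosis higher.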

How the data were processed

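Gene expression was measured in liver tissue of 3 normal rats and 3 rats with fibrosis after bile duct ligation, on 6 one-colour arrays. The authors deposited Agilent Feature Extraction 11.5.1.1 files, whose processed signal is a linear intensity with background subtracted and trends across the array removed, per the file headers, which record no step that scales arrays to each other.

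From these files, control spots and spots marked as non-uniform or population outliers were left out (0 spots were saturated), signals were put on the log2 scale, each array's 75th percentile was subtracted and replicate spots were averaged. Tested probes were well above background (at least 0.5 of its spots) on all arrays of 1 group, with values on at least 2 arrays of each group. Groups were fitted with limma 3.58.1 in R 4.3.3 across all 12620 tested probes and Benjamini-Hochberg adjusted; the probe with the highest mean stood for its gene. The fit was tested on simulated data. Unversioned accessions were matched to RefSeq (GRCr8).

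The members and gene lists were chosen with earlier results of these data known. Named genes are the members, tested family genes, up to 2 called increases and 2 decreases per list (or the smallest p) and the nearest profiles. Hapln1, Has2, Cd44, Sdc1, Sdc2, Sdc3, Sdc4, Tsku, Ugdh, Adamts4, Adamts5, Bmp1, Prg4, Cd14, Egfr, Kera and Epyc were named after their values were seen. Alternatives were marked spots kept, 4 other scalings (quantile, median, E1A, cyclic loess), normexp (offset 50, on median signals), other filters and probes, a fit across genes, eBayes trend and robust settings, array weights, a threshold of 0.01 and leaving out each array. The number of arrays limits the precision. Protein sequences were not used here.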

Additional observations from a re-analysis of the deposited data

How the results depend on the processing

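Vcan kept its direction and its call, with both probes, in every setting that tested it; the filter on all 6 arrays leaves it untested, and 1 member was then called higher in place of 2. Ogn kept its direction in all settings and lost its call at a threshold of 0.01 (1.48, adjusted p = 0.0197, leaving 1 member higher) and without normal array 1, normal array 3 or fibrosis array 1, its values running from 1.19 to 1.82 when 1 array was left out. When arrays were left out, the members called higher numbered 1 to 3 and those called lower 0; Dcn ran from 0.89 to 1.75, Bgn probe A_64_P059895 from 0.57 to 1.65, the other Bgn probe from 0.24 to 0.65, Lum from -0.30 to 0.43 and Fmod from -0.87 to 0.27. Array weights brought Dcn (1.61, adjusted p = 0.00558), Bgn probe A_64_P059895 (1.81, adjusted p = 0.00339) and Fmod (-1.25, adjusted p = 0.0416, the 1 member then lower) past the threshold. Quantile normalization and cyclic loess did so for Bgn probe A_43_P11812 (0.86 and 0.93). The cause was not tested.

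Over the 5 proteoglycan lists together, 18 genes were higher and 1 lower; 11 were higher with the filter on all 6 arrays, which tests fewer genes, and 12 to 17 when 1 array was left out. Those lower numbered 4 with marked spots kept, 3 with the fit across genes and with quantile or median scaling, 2 with cyclic loess, normexp or array weights, 0 with E1A scaling, no filter or a threshold of 0.01, and 0 to 2 when 1 array was left out. Omd turned to 0.10 (quantile), 0.14 (loess) and 0.31 (E1A control scaling), and Nyx to 0.28 (E1A control scaling); they ran from -0.25 to 0.20 and from -0.34 to 0.094 when 1 array was left out. The dimmest probe gave -1.56 for Adamts15 and -0.62 for Tgfb2. Over all tested probes, 1915 were higher and 610 lower, against 1105 and 154 at a threshold of 0.01, 1705 and 323 with no filter, 1166 and 440 with the filter on all 6 arrays, 2622 and 1448 with array weights, and 2439 and 1339 with marked spots kept; those lower numbered 1150 (quantile), 1678 (median) and 165 (E1A control scaling). The smallest count of lower probes when 1 array was left out was 201, without normal array 3, where 1228 were higher. No paired analysis was possible because the array numbers used here only follow the order of the records, and the codes in the rats' own labels share fewer than 2 numbers between the groups. The dim signals of Lum, Kera and Epyc, near the background, limit what can be said of them.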
